A study of Mus musculus with 20 samples.

Results

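Fgf5, Otx2, Sox3, Pou3f1 and Pim2, 5 genes marked by their use in the formative epiblast, were followed through 20 mouse RNA sequencing libraries. The members were taken by gene symbol from a time course table of 22102 entries and a survey of cell lines, called the discovery set here, of 42115 entries with values. All 5 symbols were found in both tables, as 5 entries in the time course and 6 in the discovery set, where Pou3f1 had 2 entries. The genes are taken as selected on their measured FPKM over the days of differentiation, since results of these data were known when they were chosen, so that course is given below as a description with no test. Whether the discovery values or the hairpin differences also entered the choice is not known. Tests of the members on those values may therefore not be independent of it.

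For the time course, E14 mouse embryonic stem cells (mESC, strain 129/Ola) were transduced with lentiviral pLKO.1 short hairpin vectors and kept under puromycin. There were 3 cultures, carrying hairpin A or hairpin B against Braveheart, a long non-coding RNA, or a scrambled hairpin, each with 1 library at days 0, 3, 6 and 9. All 3 cultures thus shared transduction and selection. The labels describe differentiation both through embryoid bodies and by directed cardiomyocyte induction, without saying which of these each library had. The hairpin A and hairpin B cultures served as 2 replicates of Braveheart depletion. The level of Braveheart itself was not analysed here, so its depletion was not checked. The discovery set held 1 library of miPS MCV8.1, an induced pluripotent line made from fibroblasts carrying Oct4-GFP by retroviruses for Oct4, Sox2, c-myc and Klf4. It held 2 libraries each of wild-type mESC from the lines E14 (129/Ola) and v6.5 (129/svJae x C57BL/6), and 2 further lines, 11.3 (MCV6) and 11.5 (MCV8), that carried the same retroviruses and are labelled as partially reprogrammed. It also held 1 library of the embryonic fibroblasts (MEF, Oct4-GFP) from which those lines were made, all of the same strain cross as v6.5. The mESC and miPS lines had grown on irradiated MEF feeders that were removed by pre-plating, and the partially reprogrammed lines without feeders.

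The epiblast passes from a naive state, held in mESC culture, through a formative state in which cells become competent to respond to signals for germ layers, before they enter the primitive streak or the neural plate. Genes of the naive network fall during that change while a set led by Otx2 and Fgf5 rises. Fgf5 encodes a secreted ligand of fibroblast growth factor receptors. Otx2 is a homeodomain transcription factor that directs the exit from the naive state and later patterns the forebrain. Sox3 is a SoxB1 transcription factor close to Sox2, and Pou3f1 (Oct6) is a POU transcription factor; both are later used in neural progenitors. Pim2 encodes a serine/threonine kinase of the Pim family that promotes cell survival.

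Promoter sequences are shown for the 3 members with a match to a motif bound by factors of the members' own families. Of the 5 members, Fgf5, Otx2 and Pim2 had an entry in the RefSeq promoter table (GRCm38.p6), Otx2 with 4 start sites. The expression tables were made on mm9, so these coordinates belong to the sequences only. The window was the 250 bases before each start, written 5′ to 3′ on the gene's strand, with motif matches in capitals. Motifs were searched on both strands as ATGCAAA (POU), TAATCC (OTX), CTTTGT (SOX) and CACGTG (E-box), none of which overlapped in the windows shown.
Pim2, chrX:7878056-7878305, plus strand: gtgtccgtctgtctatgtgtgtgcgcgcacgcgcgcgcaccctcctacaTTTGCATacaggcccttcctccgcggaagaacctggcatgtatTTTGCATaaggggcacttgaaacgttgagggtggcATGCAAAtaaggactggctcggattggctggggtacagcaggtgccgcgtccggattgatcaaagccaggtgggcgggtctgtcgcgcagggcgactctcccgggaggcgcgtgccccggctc
Fgf5, chr5:98253934-98254183, plus strand: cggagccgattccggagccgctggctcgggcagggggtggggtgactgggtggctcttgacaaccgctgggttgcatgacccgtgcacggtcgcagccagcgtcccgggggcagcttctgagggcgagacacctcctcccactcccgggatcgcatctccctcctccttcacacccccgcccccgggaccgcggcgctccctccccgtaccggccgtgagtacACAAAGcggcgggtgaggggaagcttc
Otx2, start site 3, chr14:48665110-48665359, minus strand: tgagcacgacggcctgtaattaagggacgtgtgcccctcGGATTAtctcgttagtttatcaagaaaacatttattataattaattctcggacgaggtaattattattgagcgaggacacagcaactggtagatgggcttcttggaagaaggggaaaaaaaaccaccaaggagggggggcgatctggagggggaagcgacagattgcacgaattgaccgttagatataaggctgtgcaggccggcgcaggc

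The Pim2 window held 3 matches to the POU motif, 2 on the minus strand and 1 on the plus strand. At least 1 match was present in 4.12% of 32851 promoter windows of the same length, and at least 3 in 7 of them (0.0213%). The Fgf5 window held 1 SOX match on the minus strand, as did at least 1 in 16.5% of all windows. Otx2 start site 3 held 1 OTX match on the plus strand, opposite the gene's own, against at least 1 in 6.25% of windows. The windows of the other 3 Otx2 start sites held no match to these letters. The Fgf5 and Pim2 windows were rich in G and C, at 70.8% and 62.0%, while the 4 Otx2 windows ran from 42.0% to 53.6%, against a median of 52.4% over all windows. These matches are descriptions of letters; binding was not measured.

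Some libraries stood apart from the rest. The hairpin B libraries of days 6 and 9 were closer to earlier days than to their own: over all tested genes, hairpin B day 9 correlated at 0.953 with scrambled day 0 and at 0.865 with scrambled day 9, and hairpin B day 6 at 0.953 with scrambled day 3 and 0.926 with scrambled day 6 (log2 scale, Pearson, a description across genes). The summed level of 14 measured naive genes of a list of 15 was 1150 and 1424 FPKM in hairpin B at days 6 and 9, against 240 and 179 FPKM in hairpin A and 201 and 166 FPKM in the scrambled culture. At day 0 the same sum was 1579 FPKM in hairpin A, 2110 FPKM in hairpin B and 1487 FPKM in the scrambled culture. In the discovery set the 2 v6.5 libraries correlated at 0.885 with each other, while the 2 E14 libraries correlated at 0.990. Total expected counts ran from 7536503 to 23662593 per discovery library. Depth of the time course libraries was not given and was inferred from the most common ratio of values under 0.5 FPKM between libraries. So estimated, it ran from 0.613 to 1 relative to hairpin B day 9. In these bulk libraries fewer cells of a type and less RNA per cell cannot be told apart.

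All 5 members were higher in every day 3 library than in every day 0 library, and 4 of them then fell away, so that every day 9 library lay below every day 3 library for each member but Otx2. Among the 14108 genes tested, which reached 1 FPKM in 2 or more libraries, the first pattern held for 22.2% and the second for 19.2%. Sox3, Pou3f1 and Pim2 were highest at day 3 in all 3 cultures, as were 10.9% of genes tested. Since the members were chosen with these days in view, nothing is read from those shares. Levels are FPKM, fragments scaled to transcript length and to mapped library size, with 1 library per culture and day.

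**Figure D1:**
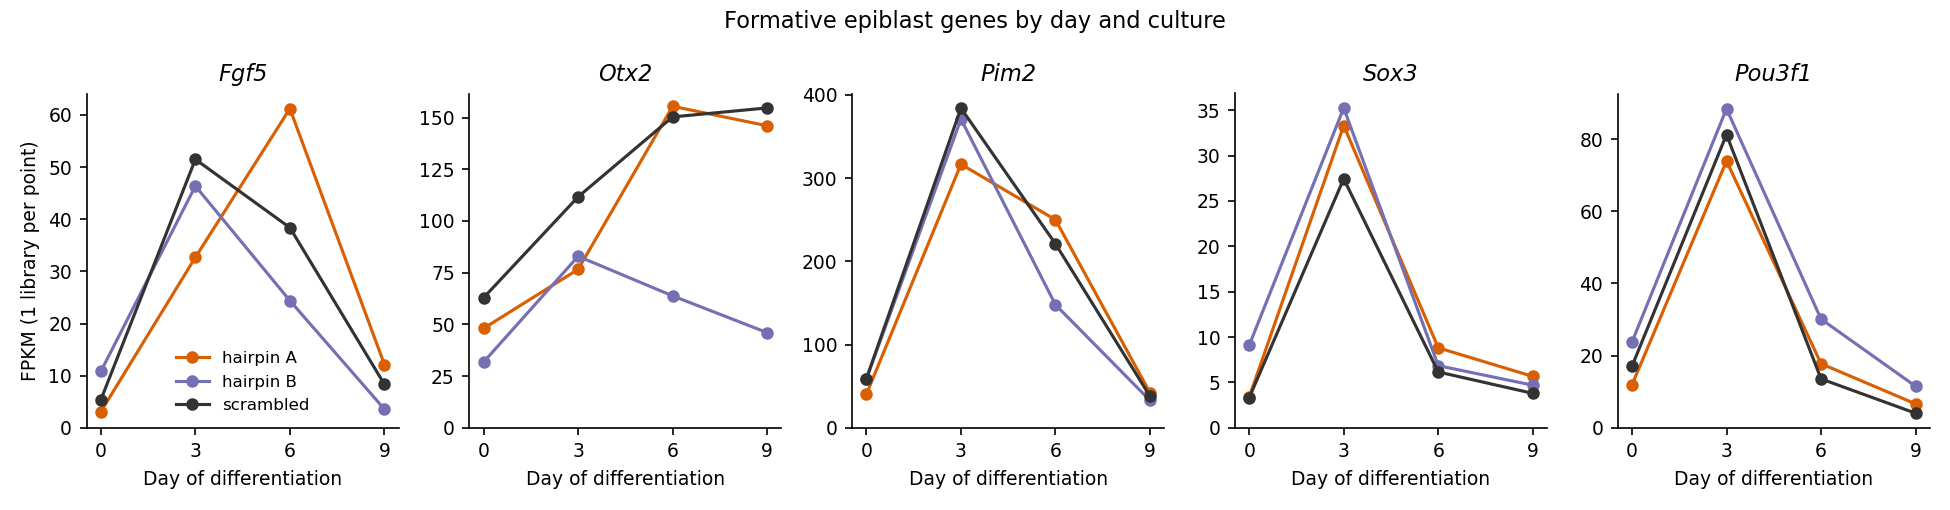
FPKM of each member (linear vertical axis, a scale of its own in each panel) against day of differentiation, with 1 point per library and a line per culture. Pim2, Sox3 and Pou3f1 peak at day 3 in all 3 cultures, Fgf5 stays high at day 6, and Otx2 stays high to day 9 except in hairpin B.

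Fgf5, the ligand (mm9 chr5:98683202-98706049), had 3.10, 32.7, 61.2 and 12.1 FPKM at days 0, 3, 6 and 9 in the hairpin A culture. It had 10.8, 46.4, 24.4 and 3.57 FPKM in hairpin B and 5.38, 51.5, 38.4 and 8.34 FPKM in the scrambled culture on the same days. Its peak fell at day 6 in hairpin A and at day 3 in the other 2 cultures. The day 3 level was between 4.29-fold and 10.6-fold the day 0 level of the same culture. Mean levels were 43.5 ± 9.72 FPKM at day 3 and 41.3 ± 18.6 FPKM at day 6 (SD, n = 3), so these days overlapped, whereas days 0 and 9 lay below both in every culture.

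Otx2 (mm9 chr14:49277858-49282547) had 48.1, 76.6, 155 and 146 FPKM at days 0, 3, 6 and 9 in hairpin A. In hairpin B it had 31.8, 82.9, 63.8 and 46.0 FPKM, and in the scrambled culture 62.9, 112, 150.3 and 155 FPKM. Its climb by day 3 was the smallest of the 5, between 1.59-fold and 2.61-fold within a culture. In hairpin A and the scrambled culture Otx2 went on to its highest levels at days 6 and 9, while hairpin B peaked at day 3. Otx2 was the only member that did not fall below its day 3 level by day 9 in those 2 cultures. The summed level of 14 measured neural genes of a list of 15 was 156 FPKM in hairpin A, 48.6 FPKM in hairpin B and 139 FPKM in the scrambled culture at day 9. At day 6 that sum was 56.7, 58.7 and 47.0 FPKM in the same order, against 59.0, 63.5 and 62.4 FPKM at day 0. The part of neural cells in the Otx2 level was not tested.

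Sox3 (mm9 chrX:58144540-58146605) gave 3.39, 33.3, 8.82 and 5.67 FPKM over the 4 days in hairpin A. Its levels were 9.10, 35.2, 6.85 and 4.70 FPKM in hairpin B and 3.32, 27.4, 6.16 and 3.80 FPKM in the scrambled culture. The pulse was narrow: the day 6 level was between 0.194 and 0.265 of the day 3 level in each culture. Hairpin B started highest at day 0, so its day 3 level was 3.88-fold that of day 0, against 9.82-fold in hairpin A and 8.27-fold in the scrambled culture.

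Pou3f1 (mm9 chr4:124334888-124337899) had 11.9, 73.9, 17.8 and 6.64 FPKM at days 0, 3, 6 and 9 in hairpin A. The hairpin B libraries held 23.8, 88.4, 30.1 and 11.5 FPKM and the scrambled libraries 17.1, 81.2, 13.6 and 4.05 FPKM. The 3 cultures agreed closely at day 3, at 81.2 ± 7.24 FPKM (SD, n = 3). Pou3f1 ended below where it began in every culture, with a day 9 level between 0.237 and 0.557 of the day 0 level.

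Pim2, the kinase (mm9 chrX:7455431-7460558), was the most abundant member per length at day 3. It had 40.4, 317, 250 and 42.2 FPKM in hairpin A over the 4 days. It had 58.8, 371, 148 and 32.9 FPKM in hairpin B and 59.1, 384, 221 and 37.9 FPKM in the scrambled culture. Its day 3 level was between 6.31-fold and 7.83-fold the day 0 level, the narrowest range of the 4 members that moved at least 2-fold in all cultures on the log2(FPKM + 1) scale (1.03% of genes tested did so). Pim2 fell more slowly than Sox3 and Pou3f1, keeping between 0.399 and 0.789 of its day 3 level at day 6 in each culture.

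The order of the members' mean levels changed with the day. At day 0 Pim2 (52.8 ± 10.7 FPKM) and Otx2 (47.6 ± 15.6 FPKM) led and overlapped between cultures, followed by Pou3f1 (17.6 ± 5.93 FPKM), with Fgf5 (6.43 ± 3.96 FPKM) and Sox3 (5.27 ± 3.31 FPKM) overlapping at the bottom (SD, n = 3 each). At day 3 Pim2 (357 ± 35.7 FPKM) stood alone, Otx2 (90.4 ± 18.7 FPKM) and Pou3f1 (81.2 ± 7.24 FPKM) overlapped, and Fgf5 (43.5 ± 9.72 FPKM) and Sox3 (32.0 ± 4.06 FPKM) overlapped. At day 6 Pim2 (206 ± 52.6 FPKM) and Otx2 (123 ± 51.5 FPKM) overlapped, and by day 9 Otx2 (116 ± 60.4 FPKM) led, above Pim2 (37.6 ± 4.66 FPKM) in every library. At day 9 Fgf5, Pou3f1 and Sox3 overlapped one another, at means of 8.01, 7.40 and 4.72 FPKM.

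Over the 12 libraries Otx2 followed the other members least. The Pearson correlation of log2(FPKM + 1) was 0.929 between Fgf5 and Pim2 and 0.894 between Sox3 and Pou3f1. Otx2 correlated at 0.534 with Fgf5, 0.332 with Pim2, 0.0800 with Sox3 and −0.198 with Pou3f1. These values describe 12 libraries that share 3 cultures and 4 days, and are not tests.

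Each member's closest genes by the same correlation, out of 13858 genes ranked, followed its own shape. Genes most like Fgf5 included Inadl (0.964) and Calcr (0.957), the calcitonin receptor. Pim2 was most like Lsr (0.976), Vrtn (0.970) and Marveld3 (0.958), a tight junction protein. Sox3 was most like Camk2n2 (0.971), Bok (0.964), a Bcl-2 family protein, and Thbs4 (0.955). Pou3f1 was most like Srsf9 (0.979), a splicing factor, Adi1 (0.977) and Sart3 (0.973). Otx2 was most like Bhlhb9 (0.974), Zfp105 (0.972) and Mettl9 (0.971). The size of the move differed between such genes: Srsf9 had 97.0, 177, 110 and 67.1 FPKM over the days in the scrambled culture, where Pou3f1 had 17.1, 81.2, 13.6 and 4.05 FPKM.

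Other genes used in the formative epiblast were mixed. Of a list of 22, all of which passed the filter, 10 were highest at day 3 in all 3 cultures (against 10.9% of genes tested), among them Dnmt3a and Dnmt3b, the de novo DNA methyltransferases, Nodal, Foxd3, Utf1 and Wnt8a. By limma over all genes, 4 of the 22 rose from day 0 to day 3 and none fell, where 6.04% of genes tested passed, 3.26% rising and 2.78% falling: Cldn6, a tight junction claudin (2.18 ± 0.41 log2, SE, n = 3 libraries a day, adjusted p = 0.0179), Wnt8a, a Wnt ligand (2.15 ± 0.50, adjusted p = 0.0377), Dnmt3b (2.10 ± 0.27, adjusted p = 0.00313) and Sall2, a zinc finger factor (2.08 ± 0.52, adjusted p = 0.0471). Some of the 22 had lower values at day 3, such as Rbpj, the transcription factor of the Notch pathway, with 33.8, 43.7 and 36.9 FPKM at day 3 in hairpin A, hairpin B and the scrambled culture, against 66.4, 82.6 and 64.9 FPKM at day 0. The median of the 22 was 0.65 log2, and of all genes tested 0.01 log2. Like the other lists here, the 22 were chosen with earlier results of these data known. Their counts and p-values are therefore not independent evidence of a rise. Dnmt3b passed under all 18 alternatives tried, whereas Cldn6 lost its call under 4, Wnt8a under 8 and Sall2 under 12. With culture as a block 7 of the 22 rose, and 12 rose without the hairpin B libraries of days 6 and 9. Dnmt3b had 74.3, 297, 193 and 34.9 FPKM over the days in hairpin A, 69.0, 358, 121 and 54.4 FPKM in hairpin B and 116, 448, 182 and 30.5 FPKM in the scrambled culture, with its peak at day 3 in every culture. It was also the 1 gene of the list that fell by day 6 against day 3, by 1.16 log2 (SE 0.27, adjusted p = 0.0414 by limma), a call lost under 10 of 18 alternatives, where 5.76% of genes passed and 2.73% fell. None of the list passed at day 9 against day 6, where 6 genes (0.0425%) did and 1985 had an unadjusted p under 0.05.

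None of the 14 naive genes that passed the filter was highest at day 3 in all cultures or higher in every day 3 library than in every day 0 library. Their median was −1.71 log2 at day 3 against day 0, and 1 passed the test, Klf4, a Krüppel-like factor, which fell by 4.76 log2 (SE 0.81, adjusted p = 0.0124 by limma). That call was lost under 3 of 18 alternatives. In hairpin B each of these naive genes was higher at days 6 and 9 than at day 3. Some stayed well below their day 0 level, such as Klf4, at 25.4 and 36.0 FPKM on those days against 279 FPKM at day 0. Klf2 had 144 and 137 FPKM against 564 FPKM.

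**Figure D2:**
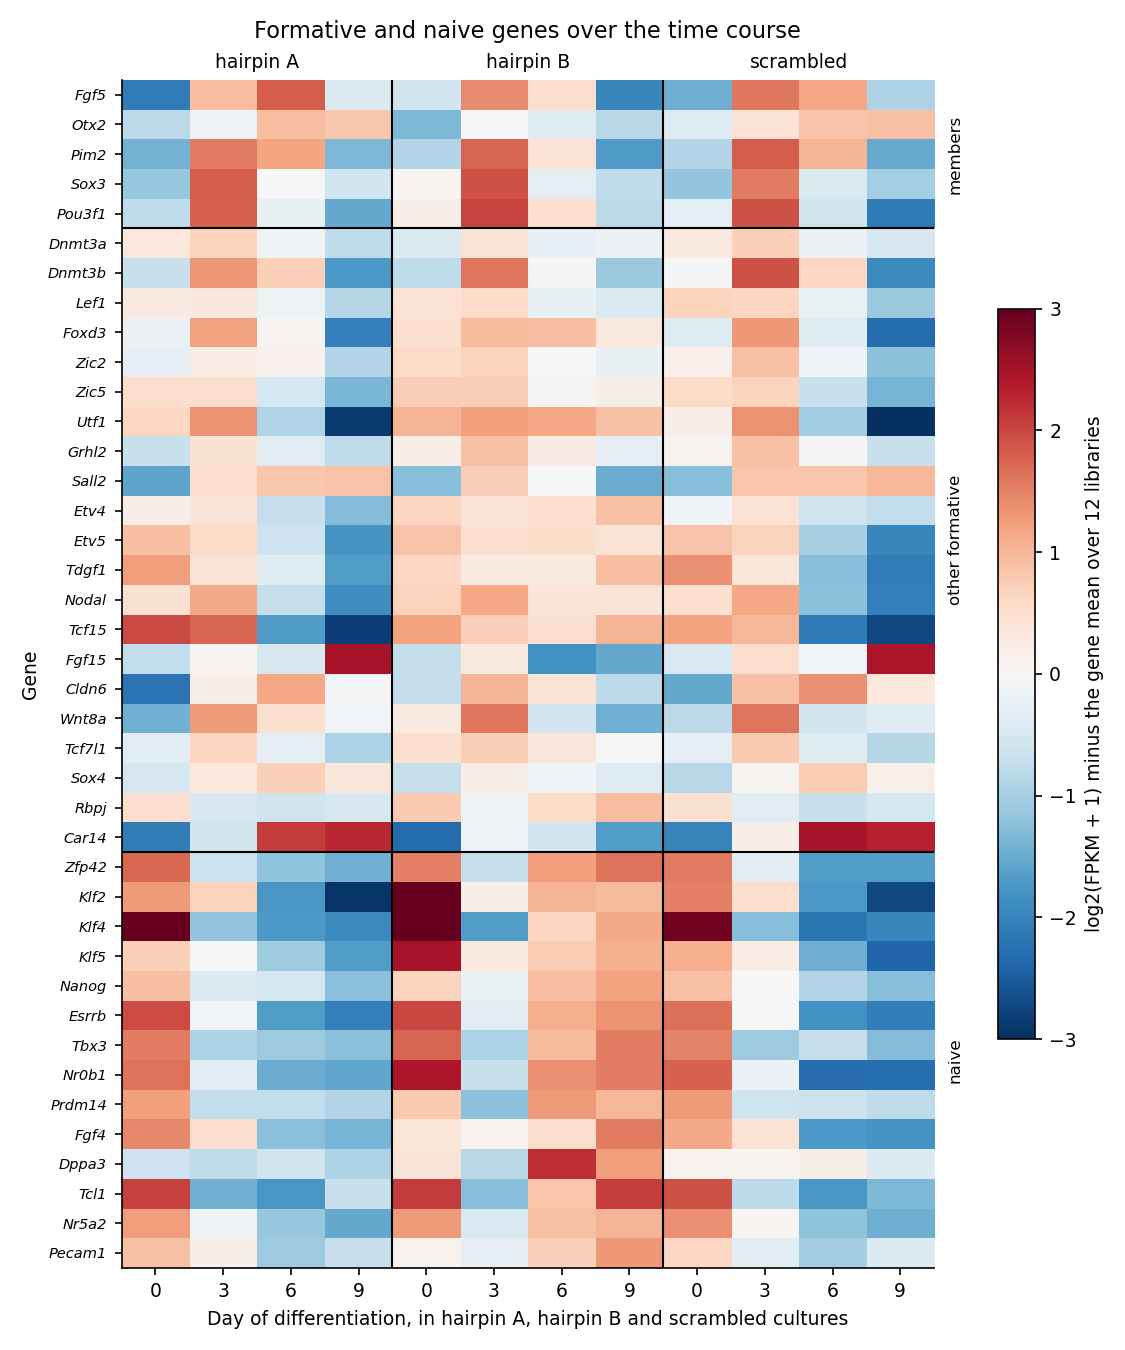
log2(FPKM + 1) of each gene minus its own mean over the 12 libraries (colour, cut off at 3 log2 either side), for the members, other formative genes and naive genes (rows) by culture and day (columns). Sox3, Pou3f1 and Pim2 are highest in the day 3 columns of all 3 cultures, and most naive genes, high at day 0, are high again at days 6 and 9 of hairpin B.

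Of 11 paralogs of the members, 9 passed the filter and none was highest at day 3 in all 3 cultures, a count near the 10.9% of genes tested that were. Sox2, the SoxB1 factor of naive and formative cells, had 432, 330, 127 and 143 FPKM over the days in hairpin A, 426, 250, 329 and 412 FPKM in hairpin B and 429, 279, 104 and 115 FPKM in the scrambled culture, so it was above Sox3 on every day. Pim1 and Pim3, the other Pim kinases, were, like Sox2, highest at day 0 in every culture, at between 102 and 134 FPKM and between 71.5 and 156 FPKM. Pou3f2, the POU factor nearest in use to Pou3f1 in neural cells, stayed at or below 0.386 FPKM to day 6 in all cultures and reached 11.4 FPKM in hairpin A, 0.445 FPKM in hairpin B and 12.0 FPKM in the scrambled culture at day 9. Otx1 followed that late course, with 21.0, 0.762 and 16.2 FPKM at day 9 in hairpin A, hairpin B and the scrambled culture.

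Whether Braveheart hairpins changed the members was tested at each day with limma, setting the average of the 2 depleted libraries against the scrambled one. No member passed at any day, and very few genes did: 3, 4, 6 and 5 of 14108 at days 0, 3, 6 and 9 (0.0213%, 0.0284%, 0.0425% and 0.0354%), against 66, 37, 148 and 199 at an unadjusted p under 0.05. The members' adjusted p was 1 at days 0, 3 and 6 and between 0.873 and 0.990 at day 9. With 1 scrambled library a day, assumed to vary like the hairpin pairs, such p-values do not show that the members were alike. The effect at day 9 minus that at day 0 did not pass for any member either, with an adjusted p of 0.9995 for each by limma, where 7 genes (0.0496%) passed and 157 had an unadjusted p under 0.05.

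Sox3 was higher in both hairpin libraries than in the scrambled library at all 4 days, a pattern whose share of all genes was 32.0%, 26.7%, 27.8% and 22.3% on the single days. The share of genes holding it on all 4 days was not counted. At day 0 hairpin A was almost level with scrambled for Sox3, at 3.39 against 3.32 FPKM. At day 3 it had 33.3 and 35.2 FPKM in hairpins A and B, against 27.4 FPKM in the scrambled culture, a difference of 0.31 ± 0.48 log2 (SE). Pou3f1 was higher in both hairpins at days 6 and 9. At day 9 it had 6.64 and 11.5 FPKM in hairpins A and B, against 4.05 FPKM in the scrambled culture, or 0.95 ± 0.51 log2 (SE, adjusted p = 0.873 by limma).

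Otx2 was lower in both hairpins at days 0, 3 and 9, where 29.9%, 27.8% and 34.2% of genes were. At day 9 it had 146 and 46.0 FPKM in hairpins A and B, against 155 FPKM in the scrambled culture, a difference of −0.90 ± 0.75 log2 (SE) that came almost wholly from hairpin B. Taken alone, hairpin A differed from scrambled by −0.08 log2 and hairpin B by −1.73 log2. At day 3 both hairpins were also below scrambled for Fgf5 and Pim2, and for Pim2 at day 0 too, by no more than 0.64 log2 in either culture. For Pim2 at day 0 hairpin B was almost level with scrambled, at 58.8 against 59.1 FPKM. At day 6, where 33.4% of genes were lower in both hairpins, no member was. At days 6 and 9 hairpin A was above and hairpin B below the scrambled library for both Fgf5 and Pim2.

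**Figure D3:**
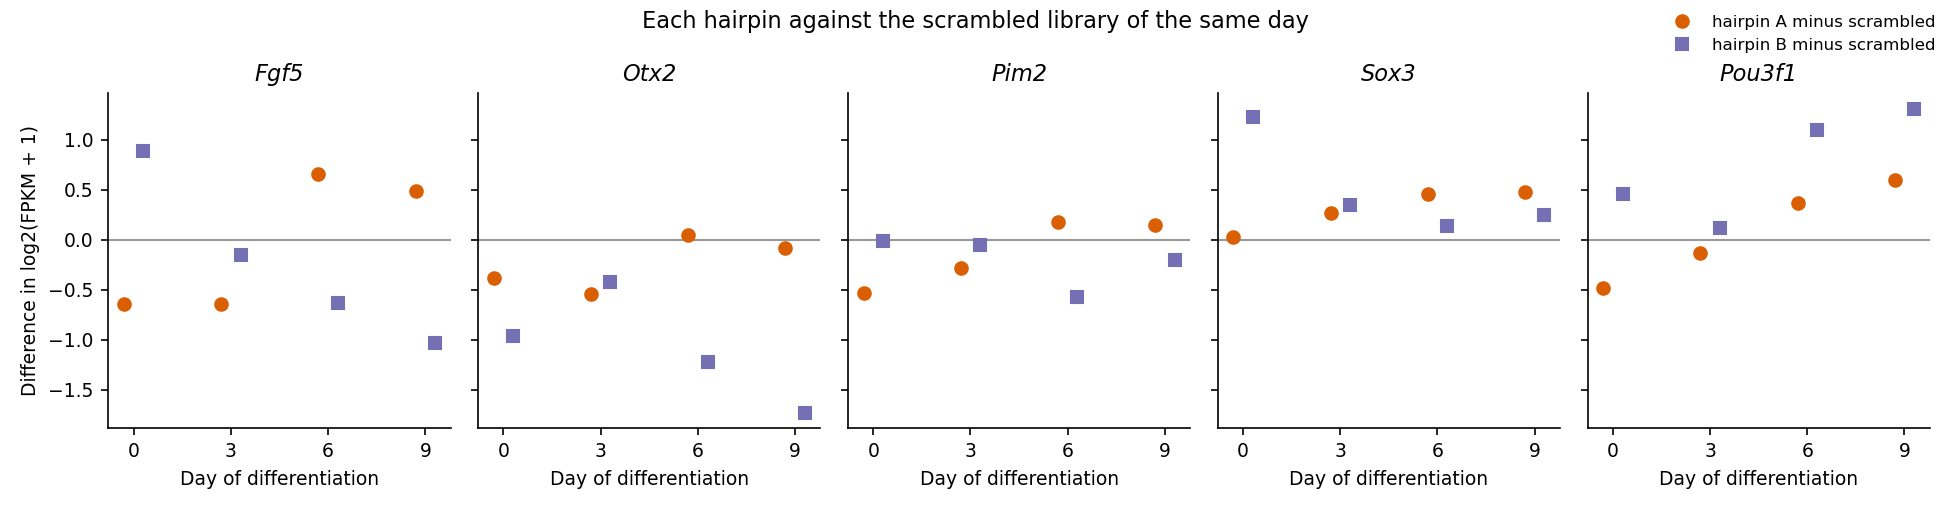
Difference in log2(FPKM + 1) between each hairpin library and the scrambled library of the same day (vertical axis) against day (horizontal axis, points set slightly apart), 1 panel per member. Sox3 lies above 0 in both hairpins at all 4 days, though barely so in hairpin A at day 0. The largest gaps between the hairpins are those of Otx2 at day 9 and Fgf5 at days 0 and 9.

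The 2 hairpins differed for some members both early and late. Hairpin B minus hairpin A was −1.27 log2 for Otx2 and −1.29 log2 for Fgf5 at day 6, and −1.64 and −1.52 log2 at day 9, while Pou3f1 was 0.73 and 0.71 log2 higher in hairpin B on those days. These are the days on which the hairpin B libraries held the high naive sums given above, and the part of undifferentiated cells in the gap was not tested. At day 0 Fgf5 was 1.53 log2 and Sox3 1.20 log2 higher in hairpin B.

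Across the discovery lines Otx2, Sox3, Pou3f1 and Pim2 were higher in mESC than in fibroblasts. In partially reprogrammed cells against fibroblasts, Pim2 passed the test. Values here are CPM, counts scaled to library size, from the deposited expected counts, which are not per length, so they compare libraries and not genes. Where all counts of a group are 0, folds are given against a floor of 3 counts per library. MEF and miPS had 1 library each, assumed in the tests to vary like the other lines.

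**Figure D4:**
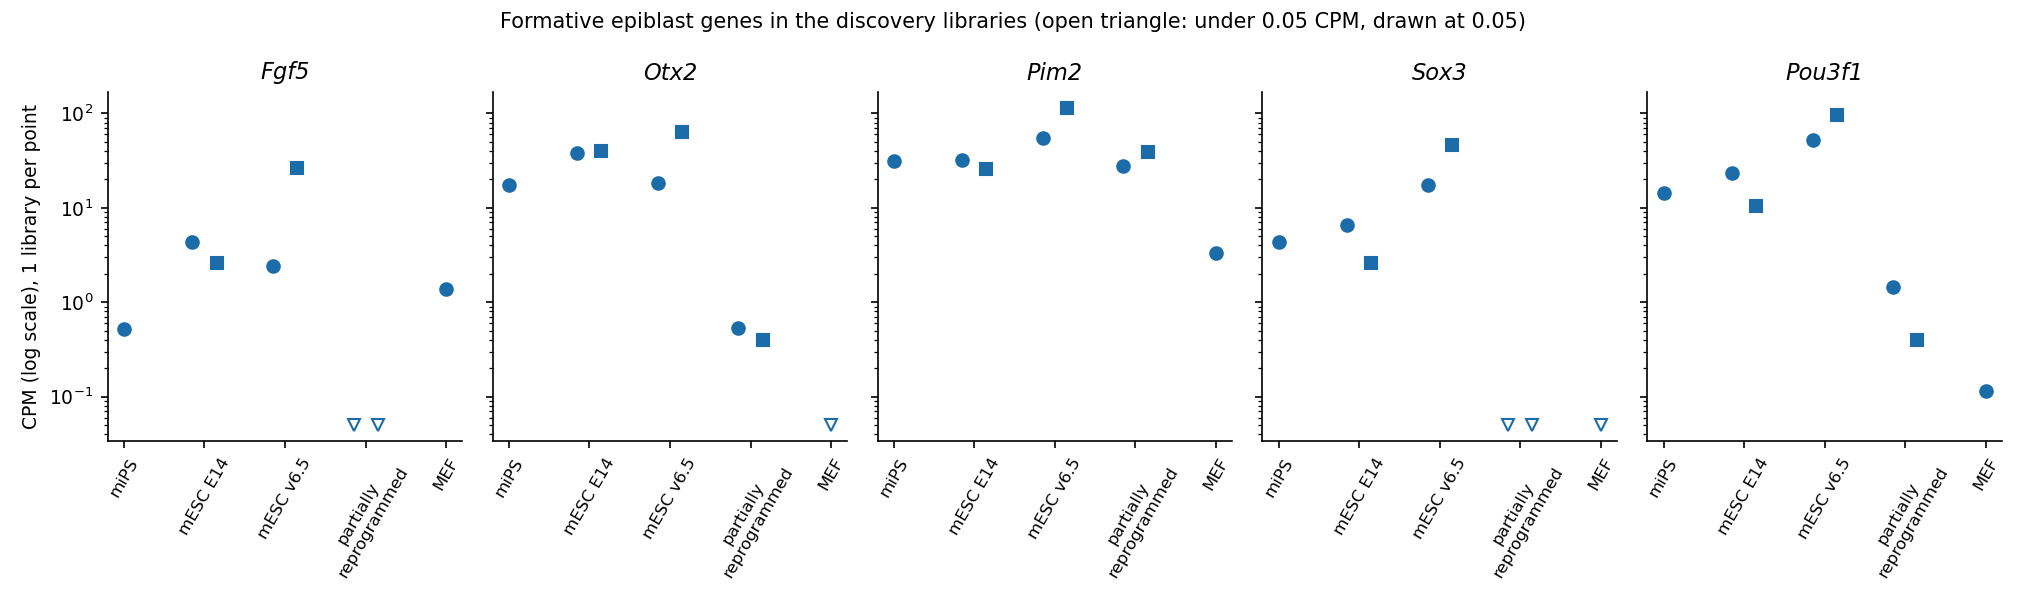
CPM of each member in each discovery library (log vertical axis, 1 point per library, with circles for replicate 1 and squares for replicate 2), by line from miPS through mESC and partially reprogrammed cells to MEF. Open triangles stand for values under 0.05 CPM, and v6.5 replicate 2 is the highest library in all 5 panels.

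Otx2 had 37.9 and 40.2 CPM in the E14 libraries and 18.3 and 63.7 CPM in the v6.5 libraries, against 0 CPM in MEF. The mean of the 4 mESC libraries, 40.0 ± 18.6 CPM (SD, n = 4), was at least 117-fold higher than the MEF floor (adjusted p = 0.00574 by edgeR's quasi-likelihood test over all genes). Sox3 had 6.53 and 2.58 CPM in E14 and 17.7 and 45.8 CPM in v6.5, against 0 CPM in MEF, a mean at least 53.0-fold higher than the floor (adjusted p = 0.0203). Every mESC library lay above MEF for both genes, as for 45.4% of entries tested. Without v6.5 replicate 2 the bound for Sox3 was 26.1-fold.

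The 2 entries of Pou3f1 summed to 23.5 and 10.6 CPM in E14 and 51.7 and 95.8 CPM in v6.5, against 0.114 CPM (1 count) in MEF. The ratio of pooled counts was 323, with an exact 95% counting interval from 57.8 to 12746. Entry ENSMUSG00000090125 passed the test (adjusted p = 0.00474) and entry ENSMUSG00000078236 did not (5.58 ± 1.76 log2, SE, adjusted p = 0.0587 by edgeR); their sum passed at 7.80 log2 (adjusted p = 0.00913). The authors' counting divides reads between these entries of 1 symbol, so each alone is uncertain.

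Pim2 had 31.9 and 25.8 CPM in E14 and 54.7 and 114 CPM in v6.5, against 3.34 CPM in MEF, and was higher by 3.53 ± 0.58 log2 (SE, adjusted p = 0.00890 by edgeR). Fgf5 had 4.35 and 2.58 CPM in E14 and 2.43 and 26.2 CPM in v6.5, against 1.37 CPM in MEF, 1.97 ± 1.42 log2 that did not pass (adjusted p = 0.334 by edgeR). It did pass when v6.5 replicate 1 was left out (2.39 log2, adjusted p = 0.0308). In all, 4 of 5 members were higher in mESC than in MEF, where 28.6% of 16773 entries tested passed, 13.2% higher and 15.4% lower. Of the other formative list 15 of 23 entries were higher, led by Tdgf1, Utf1, Nodal and Cldn6, and 2 were lower, Sox4 and Etv4. The summed level of 12 fibroblast genes was 1078 to 1241 CPM in the mESC libraries, against 61163 CPM in MEF.

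Against the partially reprogrammed lines, 4 members were higher in mESC, where 29.7% of entries passed, 16.1% higher and 13.6% lower. Otx2 averaged 40.0 ± 18.6 CPM in mESC (SD, n = 4), against 0.531 and 0.397 CPM in lines 11.3 and 11.5, and was higher by 6.40 ± 0.74 log2 (SE, adjusted p = 0.00301 by edgeR). Sox3 averaged 18.1 ± 19.5 CPM in mESC, against counts that rounded to 0 in both lines, at least 45.6-fold higher than the floor (adjusted p = 0.00754) and at least 22.4-fold without v6.5 replicate 2. Fgf5 averaged 8.88 ± 11.5 CPM in mESC, against 0 counts in both lines, at least 22.3-fold higher than the floor (adjusted p = 0.0295), a call lost without either E14 library or either partially reprogrammed library (adjusted p between 0.0613 and 0.113). The Fgf5 bound was 7.85-fold without v6.5 replicate 2. Pou3f1 summed to 45.4 ± 37.8 CPM in mESC, against 1.46 CPM (11 counts) and 0.397 CPM (3 counts) in the lines, and the sum was 5.24 log2 higher in mESC (adjusted p = 0.00523).

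Pim2 did not pass in that comparison. The 4 mESC libraries ran from 25.8 to 114 CPM, against 28.0 and 38.5 CPM in lines 11.3 and 11.5, and the difference of 0.59 ± 0.35 log2 (SE) did not pass (adjusted p = 0.243 by edgeR). It passed, at 0.78 log2, only without v6.5 replicate 1 (adjusted p = 0.0294). Partially reprogrammed lines in turn exceeded MEF for Pim2 by 2.94 ± 0.58 log2 (SE, adjusted p = 0.0241), where 13.8% of entries passed, 4.95% higher and 8.87% lower. That call was lost without either E14 or either partially reprogrammed library (adjusted p between 0.0587 and 0.0752). Fgf5 had 0 counts in the partially reprogrammed lines, against 12 counts in MEF, and did not pass in that comparison (adjusted p = 0.143), though it did by DESeq2 (adjusted p = 0.0109), without the filter (0.0149) and without v6.5 replicate 1 or 2 (0.0189 and 0.0227).

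Pim1, another Pim kinase, was low in partially reprogrammed cells. It had 138 and 107 CPM in E14, 272 and 162 CPM in v6.5 and 36.0 and 42.4 CPM in lines 11.3 and 11.5, against 37.4 CPM in MEF, and was 2.09 ± 0.34 log2 higher in mESC than in the partially reprogrammed lines (SE, adjusted p = 0.00785 by edgeR). The 2 kinases were not compared with a test of the difference. Of the other formative genes, Grhl2, Cldn6, Wnt8a and Nodal led the 15 that were higher in mESC than in partially reprogrammed cells, and Etv4 was lower. Tdgf1, Zic2, Zic5 and Etv5 were among those higher in partially reprogrammed cells than in MEF, and Sox4, Lef1 and Sall2 were lower.

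In the miPS line the members lay at or below the lower mESC levels. It had 0.525 CPM of Fgf5, 17.6 CPM of Otx2, 4.33 CPM of Sox3, 14.3 CPM of Pou3f1 and 31.1 CPM of Pim2. Fgf5 and Otx2 were below every mESC library, as were 12.6% of entries, and the other 3 lay within the mESC range. Differences from mESC ran from −3.77 ± 1.67 log2 for Fgf5 to −0.74 ± 0.46 log2 for Pim2 (SE), and none passed the test (adjusted p between 0.621 and 0.824 by edgeR, over 1 miPS and 4 mESC libraries). Only 5 of 16773 entries passed in that comparison (0.0298%), with 1334 at an unadjusted p under 0.05 and 178 by DESeq2. The naive sum was 3044 CPM in miPS, against 1017 to 2370 CPM in the mESC libraries.

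E14 and v6.5 differed most for Sox3, at −2.68 ± 0.70 log2 in E14 against v6.5, and Pou3f1 (entry ENSMUSG00000090125), at −2.18 ± 0.51 log2, with Pim2 at −1.42 ± 0.40 log2 (SE, 2 libraries a line). Both E14 libraries lay below both v6.5 libraries for these 3 genes, as they did for 32.4% of entries tested. None passed by edgeR (adjusted p = 0.146, 0.110 and 0.143), where 82 entries (0.489%) did and 3140 had an unadjusted p under 0.05. Sox3, that Pou3f1 entry and Pim2 passed by DESeq2 (adjusted p = 0.0101, 0.00564 and 0.0315), which called 1138 entries. The other Pou3f1 entry, ENSMUSG00000078236, differed by −1.34 ± 0.91 log2 (SE, adjusted p = 0.468 by edgeR) and passed under no alternative tried. With both entries summed, Pou3f1 differed by −1.996 log2 and did not pass (adjusted p = 0.166 by edgeR). The DESeq2 call for Pou3f1 thus rests on 1 of its 2 entries. Otx2 and Fgf5 overlapped between the lines, at 0.07 ± 0.54 and −1.90 ± 1.07 log2 (SE). Otx2 turned to −0.54 log2 without v6.5 replicate 1 and Fgf5 to 0.58 log2 without v6.5 replicate 2.

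The 2 v6.5 libraries were far apart for the members. Replicate 2 exceeded replicate 1 by 10.8-fold for Fgf5, 3.48-fold for Otx2, 2.59-fold for Sox3, 2.09-fold for Pim2 and 1.85-fold for the Pou3f1 sum, so 5 of the 6 member entries were at least 2-fold higher, as were 25.0% of entries tested. Of the 15 naive genes none was at least 2-fold higher in replicate 2, and 5 (Esrrb, Klf4, Nr0b1, Tbx3 and Tcl1) were at least 2-fold lower, as were 14.3% of entries. Their sum was 1017 CPM in replicate 2 and 1800 CPM in replicate 1. The other formative list was split, with 6 of 23 entries at least 2-fold higher in replicate 2 and 4 at least 2-fold lower. Of 11 fibroblast genes that passed the filter, 5 were at least 2-fold higher in replicate 2 and 1 at least 2-fold lower. This contrast within a line was chosen after its values were seen and has no replicates, so it carries no test, and the part of culture state or library in it was not tested. The E14 libraries, which were at least 2-fold apart for 7.07% of entries, differed that much for Sox3 (6.53 and 2.58 CPM) and the Pou3f1 sum (23.5 and 10.6 CPM).

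**Figure D5:**
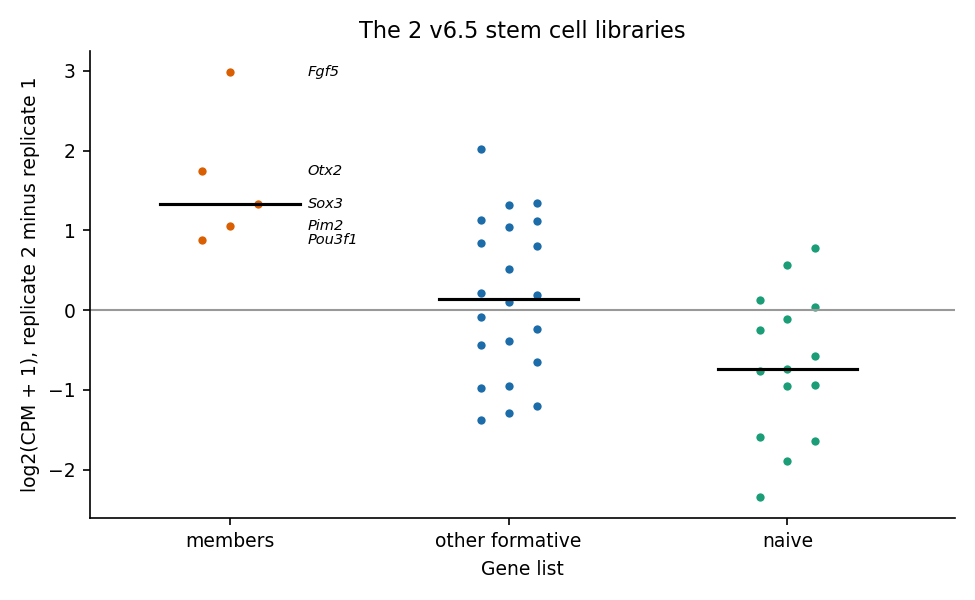
Difference in log2(CPM + 1) between v6.5 replicate 2 and replicate 1 (vertical axis) for each gene of 3 lists (horizontal axis), with a bar at the median. The 5 members lie between 0.88 and 2.98 log2, 22 other formative genes have a median of 0.15 log2, and 15 naive genes a median of −0.73 log2.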

How the data were processed

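The time course table held FPKM values deposited by gene. The submitters' processing notes name TopHat 1.14, Bowtie 0.12.7, Cufflinks 1.3.0 and mm9 for it. The discovery table held deposited expected counts beside TPM, for which those notes name TopHat 1.3, RSEM and mm9. Libraries came from bead-purified mRNA; strand use in counting is not stated in any label or header. Of the deposited columns, 24 further value columns (16 bounds and 8 ratios) were not used.

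FPKM were tested as log2(FPKM + 1), which understates the change of low genes, with limma 3.58.1 (R 4.3.3), on the 14108 genes that reached 1 FPKM in 2 or more libraries. The day course used the 3 cultures as replicates with depletion as a covariate, and the depletion effect used 8 groups. Expected counts were rounded and tested with edgeR 4.0.16 (quasi-likelihood, TMM, 5 groups, at least 1 CPM in at least 2 libraries, 16773 entries). The deposited TPM served an alternative. DESeq2 1.42.0 was another. All p-values were two-sided and Benjamini-Hochberg adjusted over all genes tested, with a threshold of 0.05. The p-values measure the spread between these libraries. Replicates in the time course were separately named cultures, and those of partially reprogrammed cells were different lines. Their spread therefore also holds any difference between hairpins, cultures or lines. For the replicate libraries of each mESC line, nothing in the labels says that they came from separate cultures, so their spread may be technical. Counting intervals and floors cover counting error only. Scripts were tested on simulated data.

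The members and the 10 gene lists were chosen with earlier results of these data known. Named genes were the members, their paralogs, for each list and comparison up to 4 genes with the largest change among those passing, and each member's 3 most alike genes (at least 300 bp long). Some genes that this rule names are not reported here. Other genes named as holding a pattern were chosen after their values were seen. Libraries of 1 culture come from the same transduced cells, which pairs them across days. The correlation of deviations within a culture ran from −0.0910 to 0.642.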

Additional observations from a re-analysis of the deposited data

Results flagged for a closer look

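Fgf5 in v6.5 replicate 2, at 26.2 CPM, lay far from the other 3 mESC libraries, which had 4.35, 2.58 and 2.43 CPM. The gap to the next library was 0.919 of the range of the 4 libraries, above Dixon's critical value for 4 values. The same measure was taken for each of the 5 members, and chance flags about 1 in 20 such groups.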

How the results depend on the processing

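Over the alternatives run, 13 of the members' 15 day-course differences kept their sign. Fgf5 at day 6 against day 3 (−0.14 log2) became 0.18 without hairpin B day 6 and 0.21 without hairpin B days 6 and 9. Otx2 at day 9 against day 6 (−0.17 log2) became 0.18 without hairpin A day 6 and 0.31 without hairpin B day 9. In all, 18 of 270 values moved by more than the spread between cultures, all at day 9 against day 6. No alternative brought a member past the threshold in a depletion comparison, with adjusted p-values from 0.154 to 1. With culture as a replicate block, 1360, 1767 and 34 genes passed at day 3 against 0, 6 against 3 and 9 against 6, in place of 852, 813 and 6, and 7 other formative genes rose by day 3. Without hairpin B days 6 and 9 together, an alternative chosen after seeing the data, these counts were 3801, 5774, 2242 and 12. Leaving out 1 library gave 167 to 2231, 41 to 2931 and 3 to 2118 genes and 1 to 7 other formative genes. The highest of each came without hairpin B day 9, and every library but hairpin A days 6 and 9 and hairpin B days 0 and 6 moved the list's count by over 1.5 times. Without the filter, 27 genes passed at day 9 against 6, 2 other formative genes at day 3, and 112, 63, 89 and 184 for depletion at days 0, 3, 6 and 9, against 0 on each of these 4 days when short loci were left out. The cause was not tested. Leaving out 1 library gave 1 to 9, 2 to 8, 4 to 12 and 3 to 44 depletion calls.

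Direction turned for some depletion effects that had not passed. With hairpin A alone Fgf5 was −0.64 at day 0 and 0.49 log2 at day 9, Otx2 0.048 and Pim2 0.18 at day 6, and Pim2 0.15 at day 9. With hairpin B alone Pou3f1 was 0.45 at day 0 and 0.12 at day 3, and Fgf5 −0.63 at day 6. Quantile normalization gave 0.00266 for Pou3f1 at day 3, −0.00442 for Fgf5 at day 6 and 0.00803 for Pim2 at day 9. Leaving out 1 library, these effects ran from −0.64 to 0.89 and −1.03 to 0.49 (Fgf5, days 0 and 9), −0.63 to 0.66 (Fgf5, day 6), −0.48 to 0.45 and −0.13 to 0.12 (Pou3f1, days 0 and 3), −1.22 to 0.048 (Otx2, day 6), −0.58 to 0.18 and −0.20 to 0.15 (Pim2, days 6 and 9).

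In the discovery set, counts of calls for E14 against v6.5 were 1138 by DESeq2, 3805 by limma on log2(TPM + 1) and 1417 without the filter, and for miPS against mESC 178, 34 and 222. limma gave 7924 for mESC against partially reprogrammed. Leaving out 1 library gave 0 to 4317 and 0 to 306 for the first 2, 1584 to 8453 for mESC against MEF, 1952 to 8470 for mESC against partially reprogrammed and 944 to 4837 for partially reprogrammed against MEF. The largest counts came without v6.5 replicate 1 or 2, and the smallest without an E14 library (also 0 for E14 against v6.5 without either partially reprogrammed library). E14 against v6.5 then ran from −2.76 to 0.58 log2 for Fgf5 and from −0.54 to 1.18 for Otx2, which passed without v6.5 replicate 2 (adjusted p = 0.0392). Pou3f1 entry ENSMUSG00000078236 ran from −0.19 to 2.82 in partially reprogrammed cells against MEF. In mESC against MEF that entry passed by DESeq2, limma, without the filter and without v6.5 replicate 2, and in mESC against partially reprogrammed it failed without either E14 or either partially reprogrammed library (adjusted p between 0.0549 and 0.167). E14 and v6.5 libraries share replicate numbers only (correlation of deviations 0.322), and with that number as a replicate block 114 entries passed in place of 82 and no member did. Members at or near 0 counts in MEF and partially reprogrammed cells are limited by depth.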

Other observations

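Genes whose log2(FPKM + 1) over the 12 libraries was among the 10 most like the mean standardised profile of the members included St6gal2, Epha1, Kif1a, Ptchd1, Zcchc3, Khdrbs1, Igdcc4, Fgd2 and Vrtn, with Pearson correlations from 0.963 to 0.953. Kif1a, a kinesin motor of axonal transport, had 7.76, 35.1, 17.2 and 10.9 FPKM in hairpin A, 8.12, 44.8, 12.8 and 6.30 FPKM in hairpin B and 8.68, 38.9, 14.6 and 8.83 FPKM in the scrambled culture. Khdrbs1, an RNA-binding protein, followed the same days in small steps, with 137, 196, 167 and 152 FPKM in the scrambled culture. Among the members themselves, Pim2 was closest to the mean profile (0.971) and Otx2 farthest from it (0.435).

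Of 11 primitive streak genes that passed the filter, 7 were higher in every day 3 library than in every day 0 library (22.2% of genes tested were). The T-box factors Eomes and T were at least 2-fold higher in all cultures on the log2(FPKM + 1) scale (1.03% of genes tested were). By limma 1 of the 11, Eomes, passed. Cer1 and Lhx1 reached no more than 0.304 and 0.164 FPKM at day 3. Lefty2 fell in every culture by day 3: scrambled 234 to 98.6 FPKM, hairpin A 216 to 145 FPKM, hairpin B 253 to 81.0 FPKM. This gene alone held most of the summed level of the 12 listed genes on both days. That sum therefore fell with Lefty2 and does not give the course of the other listed genes. The summed level fell from day 0 to day 3, from 245 to 156 FPKM in the scrambled culture. It went from 225 to 186 FPKM in hairpin A and from 285 to 143 FPKM in hairpin B. The genes named here were chosen after their values were seen.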
